A study of Mus musculus with 2 samples.

Results

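The genes described here are 7 matrix metalloproteinases (MMPs), Mmp2, Mmp3, Mmp8, Mmp9, Mmp12, Mmp14 and Mmp19, and 3 tissue inhibitors of metalloproteinases (TIMPs), Timp1, Timp2 and Timp3. They were chosen by symbol, and all 10 were found among the 31053 genes of both count matrices. The study compared lungs of Pclaf WT and Pclaf KO mice, the KO coming from a line established earlier. Mice of both genotypes were 8 to 10 weeks old and were sampled 1 week after bleomycin, a drug that injures the alveolar epithelium, at 1.35 U/kg in the series description. The study's methods state another dose. Lungs were digested with collagenase, elastase and DNase, and cells were sorted for the epithelial protein Epcam and against the endothelial protein Cd31 and the leukocyte protein Cd45. One 10x Genomics 3′ library was made per genotype, with no count of the mice behind it in the sources used here, so the difference between genotypes cannot be told apart from the difference between 2 libraries.

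MMPs are zinc-dependent endopeptidases that are made as inactive zymogens and, once activated, cut collagens, elastin, basement membrane proteins and signalling proteins. Most are secreted, while Mmp14 is anchored in the membrane and is known to activate pro-Mmp2 together with Timp2. TIMPs bind the active site of MMPs one to one and block it. Timp3 is held in the matrix and also inhibits several ADAM proteases. After lung injury, fibroblasts, macrophages and neutrophils are known sources of these proteins.

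The libraries differed in much more than genotype. The WT matrix held 30669 barcodes and the KO matrix 17172, although the study's methods state 16000 cells loaded per group, and 163 barcodes occurred in both. After the study's filter on genes and mitochondrial reads, 30187 WT and 15637 KO cells remained, with median depths of 2127 and 5957 UMIs (unique molecular identifiers, 1 per captured transcript). Despite the sort label, epithelial cells made up 5.97% of the WT cells and 72.0% of the KO cells. Immune cells made up 48.6% of the WT cells and 4.10% of the KO cells, endothelial cells 29.2% and 3.01%, and mesenchymal cells 16.2% and 20.9%. Epcam itself stood at 37.0 CPM (counts per 1000000 UMIs) in the WT library and at 187 CPM in the KO library, and Ptprc, which encodes Cd45, at 505 and 18.6 CPM. The methods state male mice, yet Xist, the RNA of the inactive X chromosome, stood at 254 CPM in the WT and 498 CPM in the KO library, beside the Y-linked Ddx3y at 74.0 and 24.0 CPM.

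Pclaf, which encodes a PCNA-binding protein of dividing cells, stood at 39.3 CPM (95% Poisson interval 38.1 to 40.6) in the WT library and at 5.19 CPM (4.76 to 5.65) in the KO library. It was 197 CPM in 29 WT and 98.9 CPM in 327 KO cycling epithelial cells, and 665 CPM in 223 WT and 539 CPM in 7 KO cycling immune cells. Pclaf UMIs were therefore left in KO cells. Which part of the gene the KO allele lacks is not given in the sources used here, so 3′ UMIs may lie outside it.

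Cells were placed in classes by markers, and each class name means cells that look like that type by those markers. In all, 26 classes in the WT and 17 in the KO library held at least 50 cells, and 14 classes did so in both. A mesenchymal cluster led by Tnfaip6 scored highest for alveolar fibroblasts. It kept no cell type name, because more markers of another class stood among its leading genes. Alveolar fibroblast markers summed to 8329 and 8348 CPM in its WT and KO cells, and adventitial fibroblast markers to 2309 and 2860 CPM. Within its lineage the cluster was led by Homer1, Nr4a3 and Nr4a2. It is called the Tnfaip6-led cluster, and Mmp3 was itself among its 10 leading genes. Timp1 was likewise among the leading genes of the activated fibroblast cluster and Mmp9 among those of the neutrophil cluster. Clusters left without a cell type name, the Tnfaip6-led one included, held 38.7% of WT and 21.2% of KO cells. The members were among the genes that could shape the clusters, so levels by class are descriptions without a test. Intervals throughout are 95% intervals that cover counting error only, and shares of cells carry exact binomial ones. UMIs from 3′ ends are not scaled by length and levels are compared between classes and libraries, not between genes.

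The promoters of members expressed in 2 different compartments are shown here, since Mmp3, Mmp8 and Mmp12 stand within 1 run of 10 Mmp genes on chromosome 9, between 7272514 and 7699585 (GRCm38), and were nevertheless read from different cells. Mmp3 and Timp1 were fibroblast genes in these data, and Mmp8 and Mmp12 were myeloid genes. Each sequence runs from 250 bases before to 50 bases after a gene start in RefSeq (GRCm38.p6, plus strand), and capitals mark TGAGTCA, a match to the AP-1 motif TGANTCA, which is its own reverse complement.
Mmp3, chr9:7445572-7445871: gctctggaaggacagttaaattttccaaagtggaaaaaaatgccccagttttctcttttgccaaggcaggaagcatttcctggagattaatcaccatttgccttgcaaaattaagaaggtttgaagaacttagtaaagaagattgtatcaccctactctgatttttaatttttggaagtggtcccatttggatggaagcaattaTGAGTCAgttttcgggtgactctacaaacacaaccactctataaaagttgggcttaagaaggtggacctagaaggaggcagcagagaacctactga
Timp1, chrX:20869916-20870215: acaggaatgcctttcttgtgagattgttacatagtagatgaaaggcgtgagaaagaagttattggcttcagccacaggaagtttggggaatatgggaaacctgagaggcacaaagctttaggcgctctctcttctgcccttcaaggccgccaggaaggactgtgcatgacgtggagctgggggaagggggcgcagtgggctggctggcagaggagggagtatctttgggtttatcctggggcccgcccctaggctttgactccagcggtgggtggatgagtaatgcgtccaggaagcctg
Mmp8, chr9:7558179-7558478: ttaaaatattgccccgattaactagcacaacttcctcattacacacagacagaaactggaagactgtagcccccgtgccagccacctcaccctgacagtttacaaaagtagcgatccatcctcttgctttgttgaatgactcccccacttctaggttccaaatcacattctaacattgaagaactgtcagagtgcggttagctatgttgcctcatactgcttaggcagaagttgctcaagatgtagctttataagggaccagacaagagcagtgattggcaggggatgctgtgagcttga
Mmp12, second start, chr9:7347124-7347423: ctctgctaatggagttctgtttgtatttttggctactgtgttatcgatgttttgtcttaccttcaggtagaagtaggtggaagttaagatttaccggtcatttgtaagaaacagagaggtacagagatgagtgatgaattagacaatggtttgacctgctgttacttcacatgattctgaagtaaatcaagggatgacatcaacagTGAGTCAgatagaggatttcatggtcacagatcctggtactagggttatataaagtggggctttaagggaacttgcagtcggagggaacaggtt
The motif stood 46 bases before the Mmp3 start and 44 bases before this Mmp12 start. The first Mmp12 start (window chr9:7344147-7344446) held no match. Of the 8 promoters that RefSeq listed for 7 members, 2 held the motif, against 7.81% of all 32851 promoters of this length. A match is a description of the letters and not a site of binding.

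Over whole libraries, the members read mainly from neutrophils or macrophages differed most between genotypes in ratio. Mmp2, the gelatinase A that cuts denatured collagen and type IV collagen, stood at 80.8 CPM in the WT and 86.2 CPM in the KO library. Timp3 stood at 300.5 and 352 CPM, and Mmp3, the stromelysin that activates other MMPs, at 26.9 and 34.9 CPM. Mmp12, the elastase of macrophages, stood at 79.8 CPM in the WT and 3.65 CPM in the KO library. Mmp9, the gelatinase B of neutrophils, stood at 13.1 and 0.569 CPM, and Mmp8, the collagenase of neutrophils, at 14.5 and 1.46 CPM. All 3 of these myeloid members were lower in the KO library, beyond their counting intervals. Mmp14 stood at 77.2 and 47.1 CPM, Mmp19 at 23.7 and 8.96 CPM, Timp1 at 80.0 and 48.7 CPM, and Timp2 at 271 and 212 CPM. The immune share of cells, 48.6% and 4.10%, moved with the levels of the myeloid members, and in summed UMIs fewer cells of a type and less RNA per cell cannot be told apart. Levels within classes are therefore given next.

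**Figure D1:**
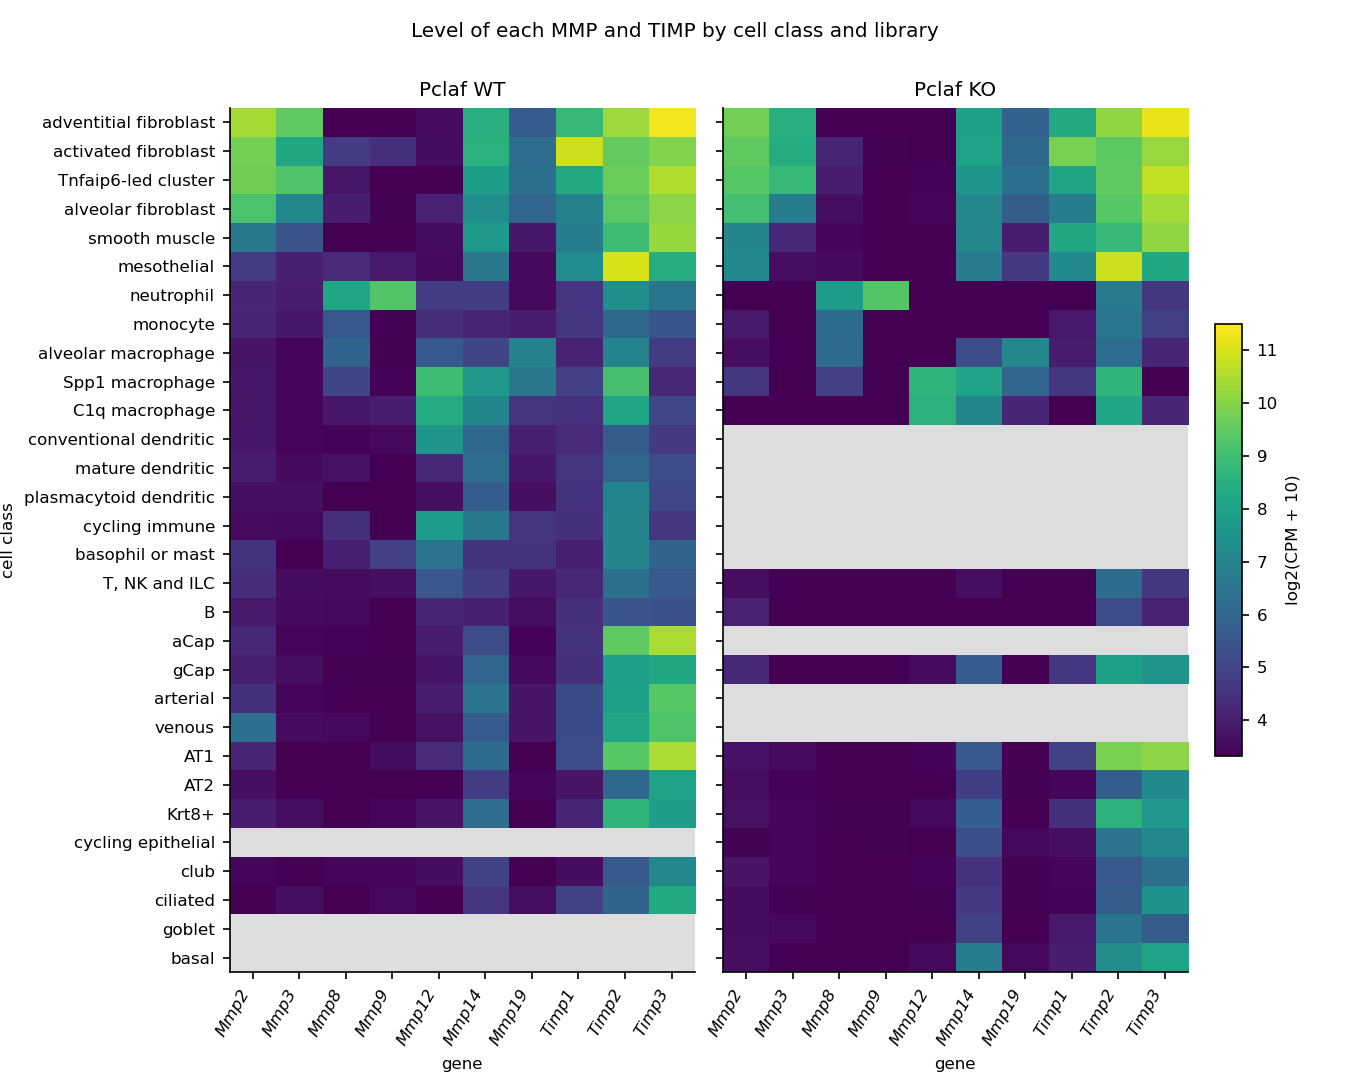
Level of each of the 10 genes in each cell class of the WT and KO library, coloured by log2(CPM + 10). Grey marks classes that are not shown because of their cell number, and rows for KO myeloid classes rest on 22 to 53 cells. Mmp2, Mmp3 and Timp1 are high in fibroblast classes, Mmp9 in neutrophils, Mmp12 in macrophages, and Timp2 and Timp3 in many classes.

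Mmp2 and Mmp3 were read from fibroblasts. Mmp2 was highest in adventitial fibroblasts, at 1349 CPM (1251 to 1453) in 120 WT cells and 848 CPM (784 to 916) in 129 KO cells. It was detected in 89.2% and 89.9% of them. Activated fibroblasts followed at 882 and 720 CPM, the Tnfaip6-led cluster at 832 and 643 CPM, and alveolar fibroblasts at 574 and 528 CPM. The order of these 4 groups was the same in both libraries, and in the WT library the intervals of activated fibroblasts (839 to 926) and of the Tnfaip6-led cluster (775 to 891) overlapped. In B cells, which should lack the gene, Mmp2 stood at 4.90 CPM in the WT library and 1.08% of cells held a UMI, at a median depth of 1838.5 UMIs against 4374.5 UMIs in adventitial fibroblasts. Smooth muscle held 90.0 CPM in the WT and 126 CPM in the KO library, and most of it lay in a subcluster led by Hhip, at 211 and 184 CPM, against 32.6 and 61.4 CPM in the subcluster led by Acta2 and Myh11.

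Mmp3 kept to fewer cells. It stood at 713 CPM (642 to 789) in WT and 349 CPM (309 to 394) in KO adventitial fibroblasts, yet was detected in 31.7% and 27.1% of these cells. The Tnfaip6-led cluster held 603 and 436 CPM and activated fibroblasts 292 and 325 CPM, so that in the KO library the Tnfaip6-led cluster stood above the adventitial fibroblasts. Alveolar fibroblasts held 128 and 101 CPM, with a UMI in 6.23% and 10.8% of cells. The Tnfaip6-led cluster, which scored highest for alveolar fibroblasts, is not counted among them. In adventitial fibroblasts, the 5 cells with the most Mmp3 UMIs held 160 of 370 UMIs in the WT and 115 of 266 in the KO library. B cells held 1.47 CPM in the WT library.

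Mmp9 was read mostly from neutrophils. Neutrophils held 617 CPM (581 to 654) in 792 WT cells and 623 CPM (447 to 845) in 35 KO cells, and a UMI was found in 64.5% and 54.3% of them. Neutrophils held 89.6% of all Mmp9 UMIs in the WT library and 70.7% of the 58 in the KO library. In ciliated cells, which should lack it, Mmp9 stood at 1.23 CPM in the WT library and at 0 in 1193 KO cells. Although its level over the whole library was far lower in KO, the level within neutrophils was close in both libraries.

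Mmp8 was likewise highest in neutrophils, at 278 CPM in WT and 213 CPM (116 to 357) in KO cells, with a UMI in 29.8% and 31.4% of them. Unlike Mmp9, it was also read from alveolar macrophages, at 51.8 and 61.4 CPM, and from monocytes, at 37.4 and 63.3 CPM. Alveolar macrophages held 21.8% of Mmp8 UMIs in the WT library and neutrophils 36.5%. Activated fibroblasts held 16.7 (WT) and 8.08 CPM (KO), and ciliated cells 0 and 0.221 CPM.

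Mmp12 was highest in macrophages marked by Spp1, at 487 CPM (470 to 505) in 751 WT cells and 400.0 CPM (318 to 497) in 22 KO cells. Macrophages marked by C1q genes held 318 CPM in 850 WT cells and 369 CPM (268 to 495) in 24 KO cells. A UMI was found in 33.6% of WT Spp1 macrophages and 27.2% of WT C1q macrophages. Its UMIs were unevenly spread, since 1 WT Spp1 macrophage held 395 of the 2904 UMIs of its class and the top 5 held 889. The KO levels rested on few cells, as 5 cells held 80 of the 82 UMIs in KO Spp1 macrophages and 42 of the 44 in KO C1q macrophages. Cycling immune cells at 220 CPM and conventional dendritic cells at 183 CPM followed in the WT library. Alveolar macrophages held 37.8 CPM there and none in 42 KO cells, where 3 UMIs would be 8.01 CPM. Unnamed immune clusters held 141 of the 372 Mmp12 UMIs of the KO library. Spp1 macrophages formed a class of at least 50 cells in 6 of 10 alternative ways of grouping the cells. Among the alternatives, the highest WT class was C1q macrophages with at least 500 genes, with the limits read as UMIs and at resolution 0.4. It was cycling immune cells with 30 principal components and with Scrublet doublets left out.

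Mmp19, a protease with a broad range of matrix substrates, was shared between macrophages and fibroblasts. Alveolar macrophages held 111 CPM (102 to 120) in WT and 128 CPM (94.5 to 170) in KO cells, and 41.7% and 42.9% of them held a UMI. Spp1 macrophages held 87.6 and 53.7 CPM, the Tnfaip6-led cluster 70.8 and 68.9 CPM, and activated fibroblasts 68.0 and 57.7 CPM. In C1q macrophages, by contrast, Mmp19 stood at 14.1 CPM in the WT library, and no UMI was found in 384 WT or 695 KO AT1 cells.

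Mmp14 was read from fibroblasts, smooth muscle, macrophages, epithelial cells and endothelial cells. Activated fibroblasts held 367 and 260 CPM in WT and KO, adventitial fibroblasts 337 and 243 CPM, smooth muscle 201 and 128 CPM, and Spp1 macrophages 194 and 254 CPM (189 to 333 in KO). It was found in 72.0% of WT and 95.5% of 22 KO Spp1 macrophages. Among epithelial cells, Krt8+ cells, a state between AT2 and AT1 cells seen after injury, held 66.4 and 44.1 CPM, AT1 cells 64.3 and 39.1 CPM, and AT2 cells 18.0 and 18.5 CPM. KO basal cells held 97.0 CPM. General capillary cells, an endothelial class, held 54.0 and 42.3 CPM. B cells held 6.38 CPM in the WT library, below each of these. Lymphatic endothelial cells numbered 43 in WT, under the minimum of 50. In some alternative groupings they were the highest WT class, namely with the limits read as UMIs, 10 or 30 components, or resolution 1.2. With at least 500 genes, without Scrublet doublets, or at resolution 0.4, adventitial fibroblasts were the highest WT class.

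The 3 inhibitors differed in where they stood highest. Timp1, the inducible TIMP, peaked in activated fibroblasts, at 1881 CPM (1819 to 1945) in 299 WT cells and 902 CPM (865 to 940) in 348 KO cells, with a UMI in 80.3% and 79.0% of them. Adventitial fibroblasts came next in both libraries, at 439 and 305 CPM. The Tnfaip6-led cluster followed in WT, at 301 CPM, while in KO smooth muscle, at 287 CPM, stood above its 262 CPM. Activated fibroblasts held 45.6% of all Timp1 UMIs in the WT and 45.0% in the KO library. B cells held 11.3 CPM in the WT library.

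Timp2 peaked in mesothelial cells, which line the pleura, at 2043 CPM (1932 to 2158) in 103 WT cells and 1852 CPM (1777 to 1930) in 169 KO cells. It was found in 97.1% and 98.2% of them. Adventitial fibroblasts held 1266 and 1119 CPM, and AT1 cells 649 and 917 CPM. Among endothelial cells, aerocytes (aCap), the large capillary cells of the alveolus, held 694 CPM in the WT library and general capillary cells (gCap) 236 and 239 CPM. AT2 cells, at 55.9 and 44.4 CPM, were near B cells, at 34.2 and 27.5 CPM.

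Timp3 peaked in adventitial fibroblasts, at 2598 CPM (2461 to 2740) in WT and 2366 CPM (2258 to 2478) in KO cells. The Tnfaip6-led cluster held 1454 and 1704 CPM, AT1 cells 1390 and 1068 CPM, smooth muscle 1159 and 1115 CPM, and alveolar fibroblasts 1064 and 1306 CPM. WT aerocytes stood at 1393 CPM, within the interval of WT AT1 cells (1289 to 1498). In AT1 cells the level depended on the subcluster, with 2405 and 1454 CPM in cells led by Rtkn2 and 811 and 343 CPM in shallower cells led by Cryab, which made up 89.1% of WT and 67.9% of KO AT1 cells. Timp3 was lower in KO in both subclusters. The log2 ratio of KO over WT for the whole class, -0.38 (-0.50 to -0.26), also depends on these shares. Spp1 macrophages, in contrast to their Timp2 of 540 and 400.0 CPM, held 9.23 CPM of Timp3 in the WT library, below the 31.1 CPM of B cells.

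**Figure D2:**
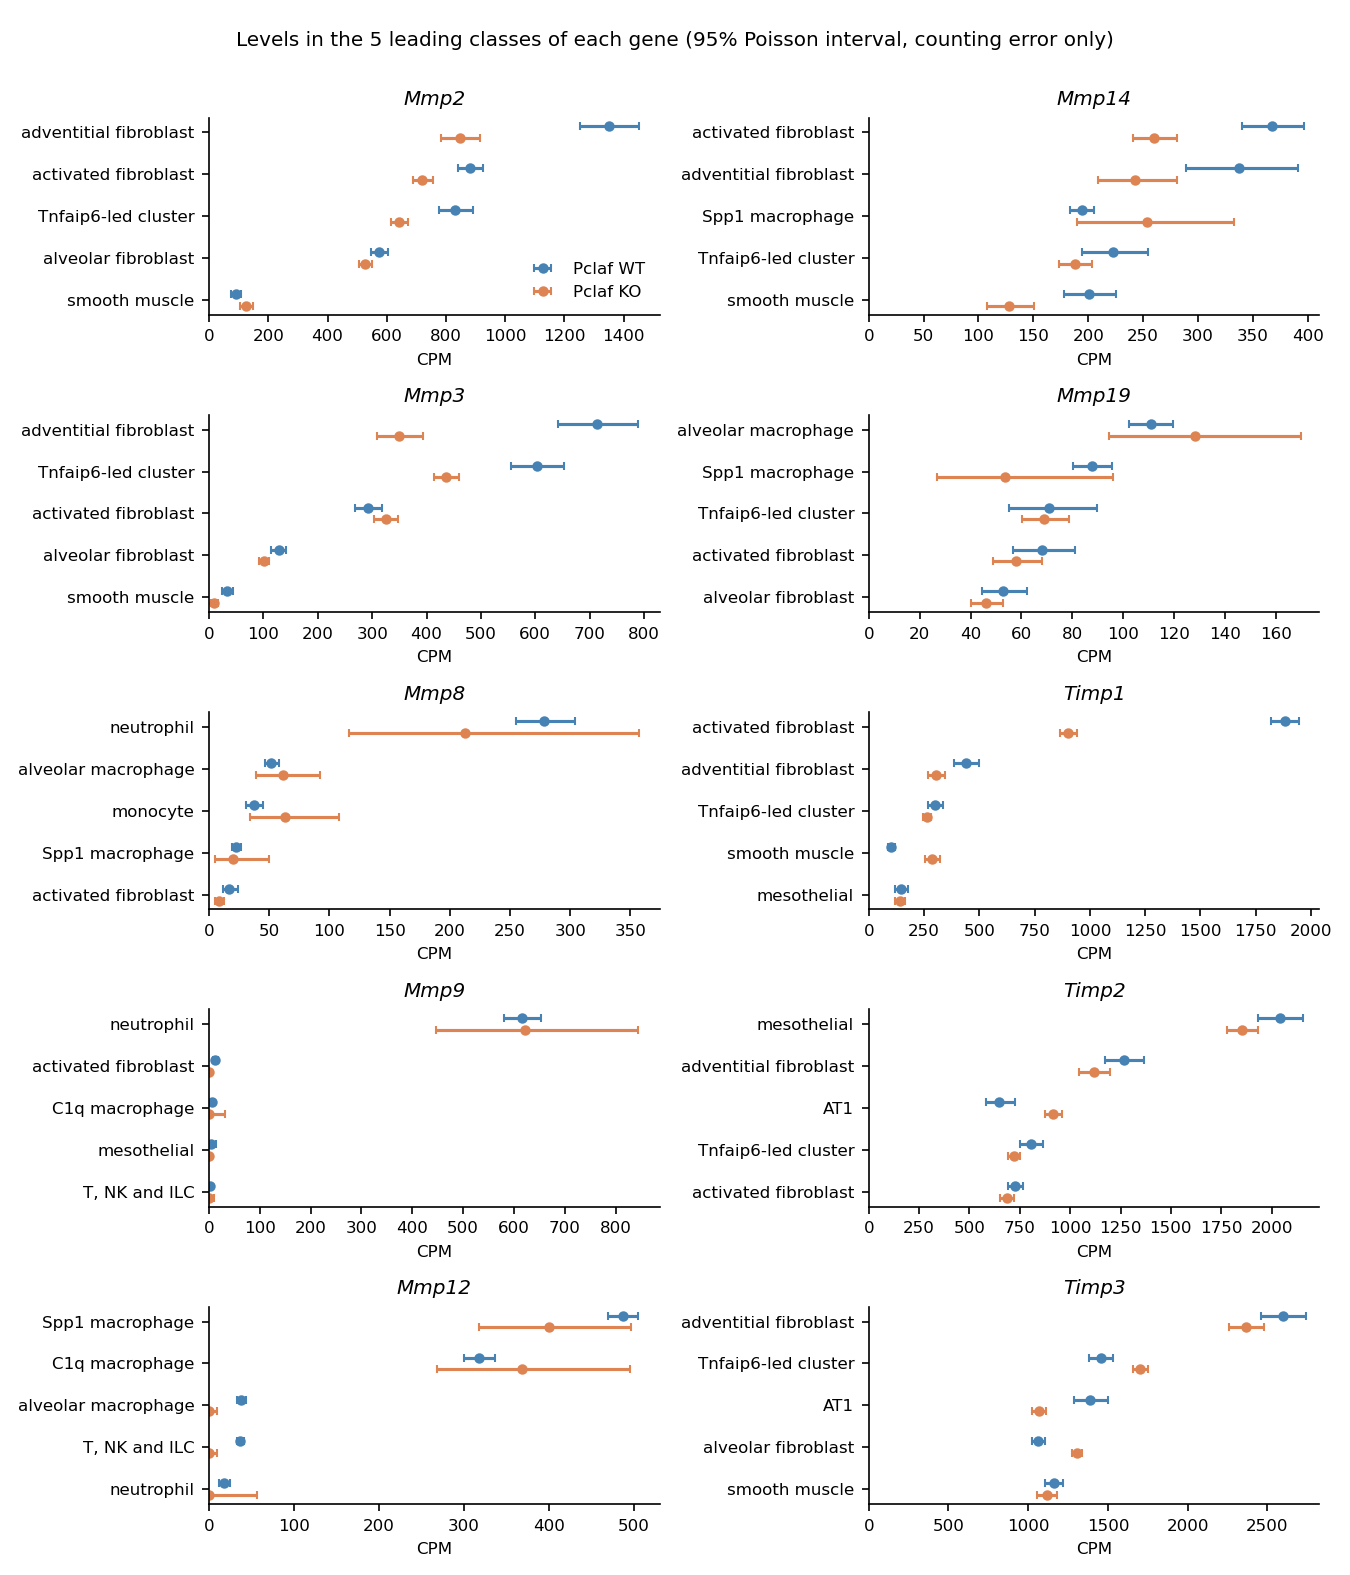
The 5 leading classes of each gene, as CPM with 95% Poisson intervals, for the WT and KO library. Fibroblast classes lead for Mmp2, Mmp3, Mmp14, Timp1 and Timp3, neutrophils for Mmp8 and Mmp9, macrophages for Mmp12 and Mmp19, and mesothelial cells for Timp2.

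Counted over the 14 classes with at least 50 cells in both libraries, the highest class was the same in the WT and KO library for 9 of the 10 members, against 60.3% of the 17233 genes counted the same way. The exception was Mmp12, whose macrophage classes held too few KO cells to be counted. For Mmp9 the shared class was activated fibroblasts, at 11.9 and 0.404 CPM, the latter a single UMI, because KO neutrophils also fell under 50 cells. For Mmp8 it was monocytes, and for Mmp19 activated fibroblasts, for the same reason.

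Proteases and inhibitors were summed within a class and given as the share of MMP UMIs among all UMIs of the 10 genes. In the WT library this share was 79.0% (77.3 to 80.7) in neutrophils, 78.6% in conventional dendritic cells, 62.1% in alveolar macrophages, 60.4% in C1q macrophages and 58.4% in Spp1 macrophages. Cycling immune cells held 69.5%, and the shares of the other lymphoid and myeloid classes named here were lower, with 49.6% in mature dendritic cells, 40.7% in monocytes, 39.3% in T, NK and ILC cells, 26.2% in plasmacytoid dendritic cells and 24.4% in B cells. It was 36.2% in WT and 28.2% in KO adventitial fibroblasts, 31.4% and 33.0% in activated fibroblasts, and 33.2% and 28.1% in alveolar fibroblasts. The lowest shares were those of AT1 cells, at 3.93% and 2.18%, and of WT aerocytes, at 2.03%. Mesothelial cells held 4.79% in WT and 9.76% in KO cells. In WT neutrophils, conventional dendritic cells, cycling immune cells and these 3 macrophage classes MMP UMIs outnumbered TIMP UMIs, and in each of the fibroblast, AT1, aerocyte and mesothelial classes named the reverse held. Mmp12 alone gave 709 of the 983 MMP UMIs in WT conventional dendritic cells and 472 of 723 in WT cycling immune cells. Since levels are not compared between genes, the share is read between classes and not as a balance of proteases and inhibitors. A UMI counts a transcript and gives neither protein nor activity.

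**Figure D3:**
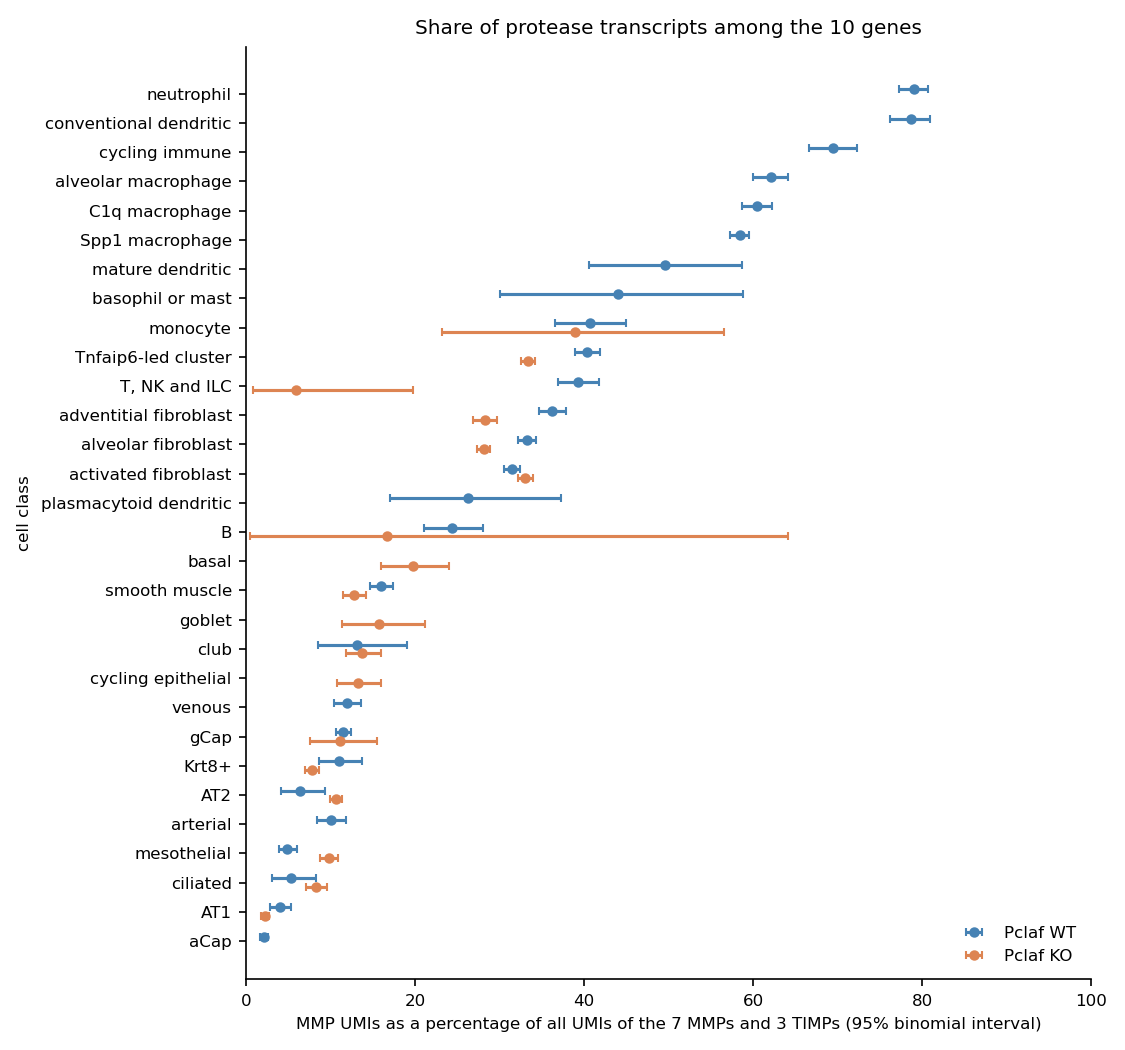
Share of MMP UMIs among all UMIs of the 7 MMPs and 3 TIMPs, in percent, by class for the WT and KO library. WT neutrophils (79.0%) stand at the top and WT aerocytes (2.03%) at the bottom.

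The comparison of KO with WT was made within classes, where it asks whether a cell type of the KO library held more or less of a transcript than the same type of the WT library. A pair of gene and class was compared where at least 10 UMIs would be expected in each library at equal levels, which left 56 pairs over 9 members, Mmp9 having none. With 1 library per genotype there is no test, and a pair is counted when it is past a 2-fold difference. Of the 56 pairs, 2 were past it upwards, against 1.93% of the 100751 pairs of all genes, and 6 downwards, against 3.69%. The other 48 lay within 2-fold. The members had a median log2 ratio (KO over WT) of -0.22 and all genes one of -0.08, and 43 of the 56 pairs lay below 0, as did 58.2% of all pairs.

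**Figure D4:**
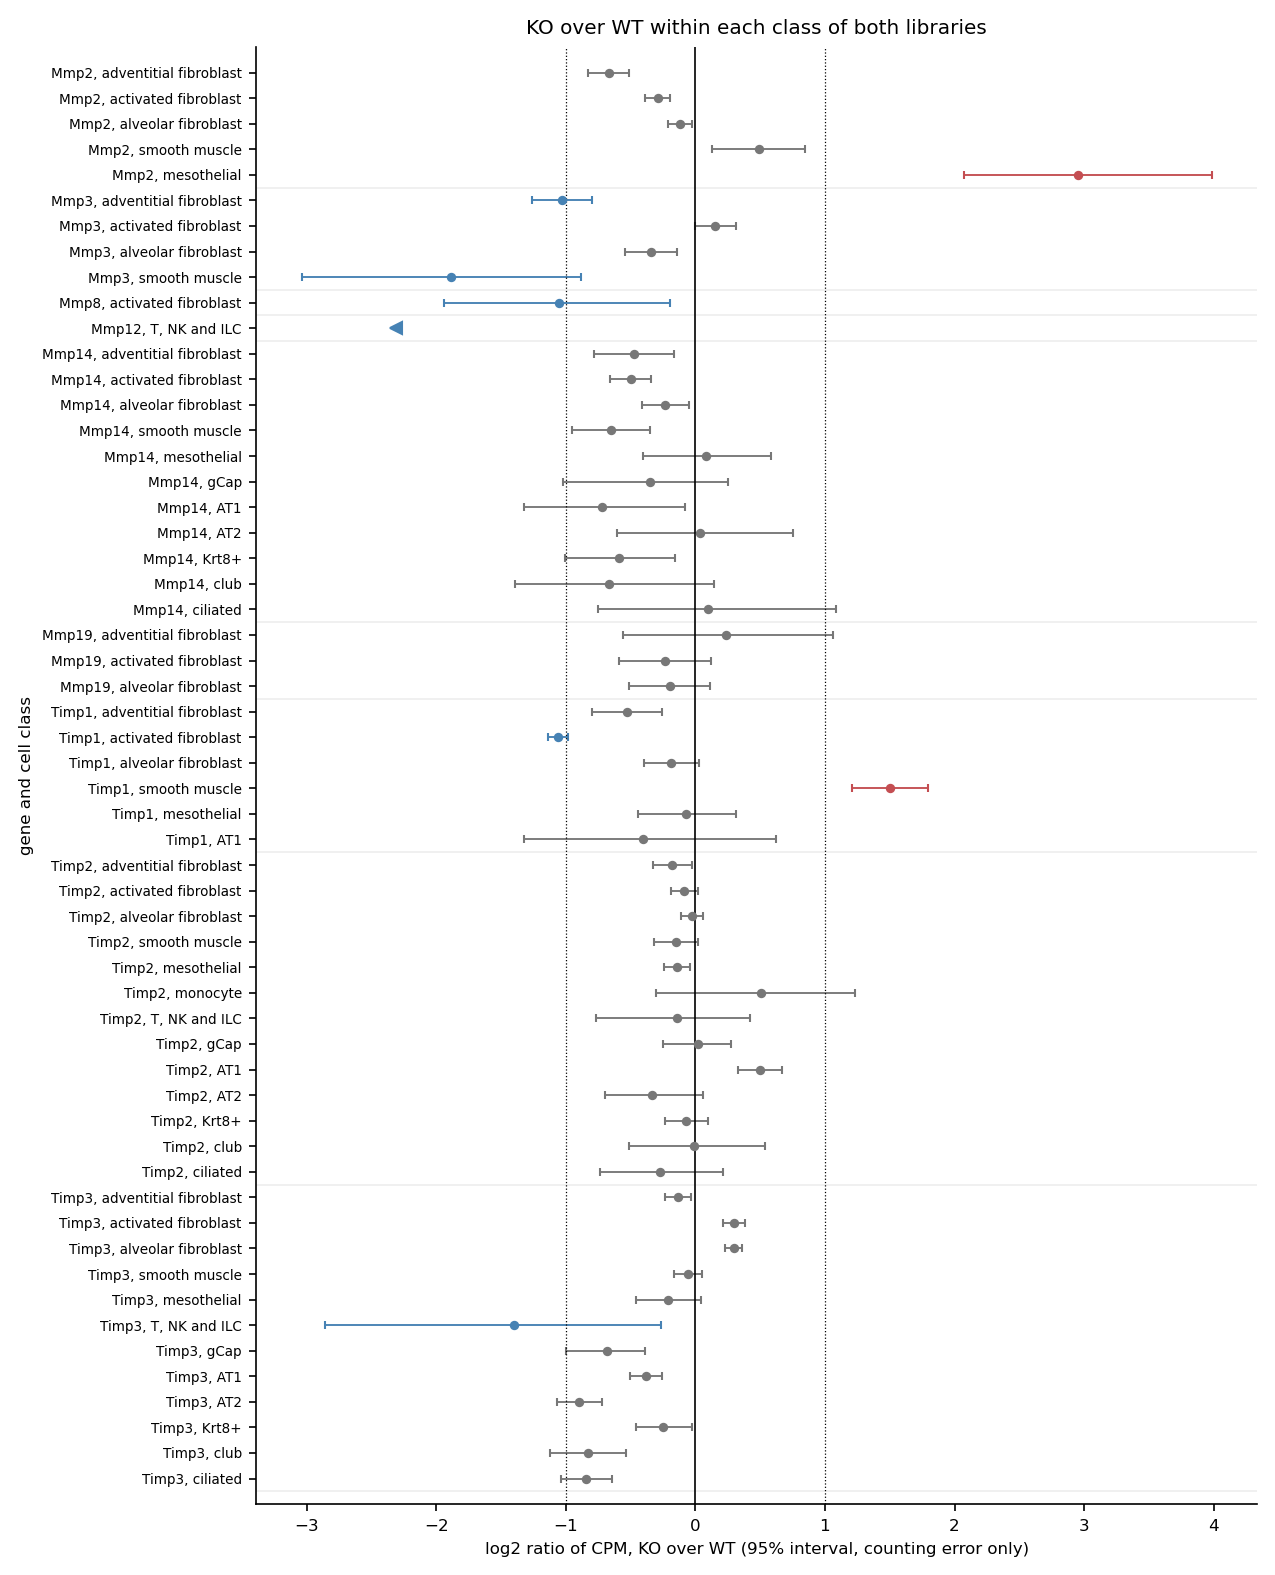
log2 ratio of KO over WT for the 56 pairs of gene and class, with 95% intervals from the 2 counts. Dotted lines mark 2-fold, and a triangle marks the bound for Mmp12 in T, NK and ILC cells, which had no UMI in KO. Most pairs lie between the dotted lines.

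The 2 upward pairs differed in how their UMIs were spread over the cells. Mmp2 in mesothelial cells was 17.7 CPM (11 UMIs in 10 of 103 cells) in WT and 137 CPM (167 UMIs in 72 of 169 cells) in KO, a log2 ratio of 2.95 (2.08 to 3.98). The UMIs outside the 5 top cells gave 8.03 and 105 CPM in WT and KO. After thinning each cell to 1000 UMIs, 1.00% of WT and 10.8% of KO mesothelial cells held a UMI. The markers of adventitial fibroblasts summed to 593 and 1005 CPM in WT and KO mesothelial cells, and to 1204 CPM in the KO cells with Mmp2 against 846 CPM in those without, and the part of these transcripts in the Mmp2 ratio was not tested. Other fibroblast markers went the other way, those of alveolar fibroblasts summing to 861 and 527 CPM in WT and KO mesothelial cells and those of activated fibroblasts to 271 and 140 CPM. When each cell was instead gated by its own marker UMIs, the log2 ratio was -0.006.

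Timp1 in smooth muscle was 101 CPM (142 UMIs) in WT and 287 CPM (316 UMIs) in KO, a log2 ratio of 1.50 (1.21 to 1.80). In the KO library 5 cells held 231 of the 316 UMIs, and the UMIs outside the 5 top cells gave 82.2 and 77.2 CPM in WT and KO. The share of cells with a UMI was 24.7% in WT and 20.7% in KO. Most WT cells of the class, 251 of 364, were in the subcluster led by Acta2 and Myh11, at 77.9 and 57.5 CPM, while most KO cells, 143 of 246, were in that led by Hhip, at 151 and 493 CPM. Under marker gating the log2 ratio turned to -0.76.

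**Figure D5:**
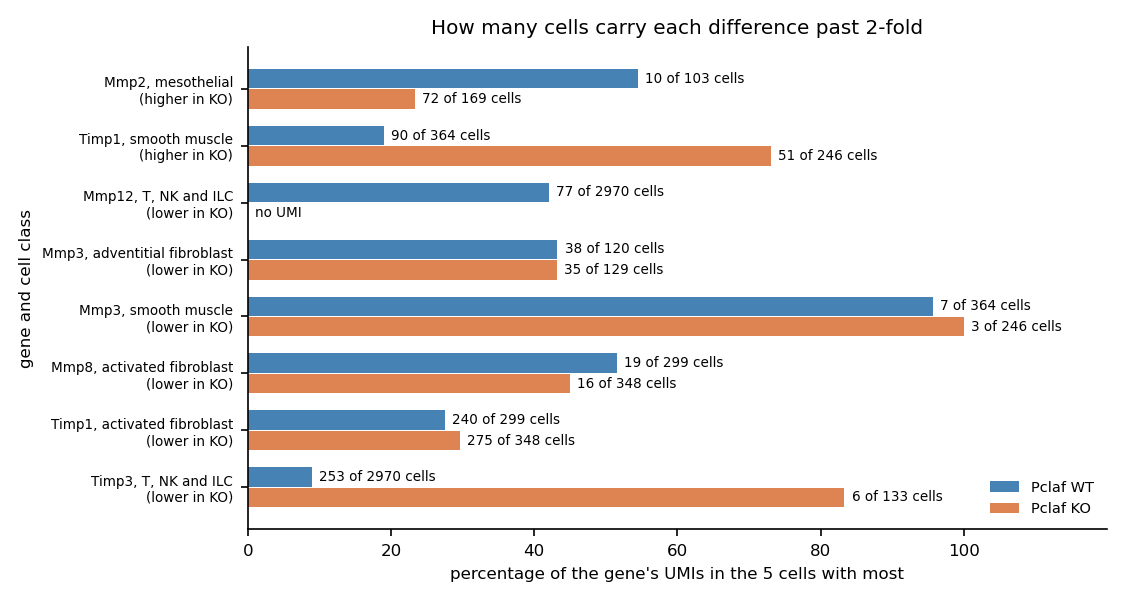
Share of the UMIs of a gene and class that came from the 5 cells with the most, in percent, for the 8 pairs past 2-fold, in WT and KO. Timp1 in KO smooth muscle (73.1%) and Mmp3 in WT smooth muscle (95.7%) rest on few cells.

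Of the downward pairs, Timp1 in activated fibroblasts held the most UMIs. Its level of 1881 CPM (3486 UMIs) in WT and 902 CPM (2233 UMIs) in KO gave a log2 ratio of -1.06 (-1.14 to -0.98). Nearly the same share of cells held a UMI, 80.3% and 79.0%, and after thinning 48.6% and 34.8%. In this class the markers of activated fibroblasts summed to 1801 (WT) and 870 CPM (KO), and those of Spp1 macrophages to 8585 and 3363 CPM. Spp1, on the latter list, was itself among the leading genes of this cluster within its lineage. The markers of C1q macrophages summed to only 68.5 and 31.1 CPM, and those of the immune lineage to 73.9 and 12.5 CPM. The markers of alveolar fibroblasts, at 4001 and 5176 CPM, and of adventitial fibroblasts, at 1861 and 2570 CPM, exceeded the class's own and were higher in KO. The part of these lists in the Timp1 ratio was not tested. The ratio came within 2-fold under 4 of 12 alternative settings, at -0.61 with marker gating, -0.79 after thinning, -0.87 with no upper limit on genes and -0.99 with TMM scaling. Activated fibroblasts formed a class of at least 50 cells in 5 of the 10 alternative ways of grouping the cells. Mmp8 in the same class was 31 UMIs in WT and 20 in KO, a log2 ratio of -1.05 (-1.94 to -0.19) that came within 2-fold under 3 of 10 alternatives.

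Mmp3 in adventitial fibroblasts, at 713 (WT) and 349 CPM (KO), gave a log2 ratio of -1.03 (-1.26 to -0.80). It came within 2-fold under 7 of 17 alternative settings. Mmp2 in the same cells, at 1349 and 848 CPM, gave -0.67 (-0.83 to -0.51) and stayed within 2-fold. Mmp3 in smooth muscle rested on few cells, 45 of its 47 WT UMIs being in 5 cells, against 10 UMIs in KO. Its log2 ratio was -1.89.

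The other 2 downward pairs were in T, NK and ILC cells, which neither gene is known to mark. Mmp12 was 36.6 CPM (304 UMIs in 77 of 2970 cells) in WT, and no UMI was found in 133 KO cells. There 3 UMIs would be 7.39 CPM, and the WT level was 4.96-fold this floor. The exact interval of the log2 ratio reached up to -2.002 and treats each UMI as a separate count. In WT, however, 5 cells held 128 of the 304 UMIs. C1q macrophage markers summed to 2849 CPM in the WT cells with Mmp12 and to 462 CPM in those without, and to 66.5 CPM in the KO cells, and their part in the Mmp12 level was not tested. Timp3 was 39.0 CPM (324 UMIs) in WT and 14.8 CPM (6 UMIs) in KO, a log2 ratio of -1.40 (-2.86 to -0.26), near the 31.1 and 6.86 CPM of B cells in the same libraries. In this class 14.0% of all genes were past 2-fold downwards.

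Over all classes compared, pairs past 2-fold included, the 7 members with more than 1 class each had a median log2 ratio below 0, while single classes lay on both sides of it. The pairs of all genes also had a median below 0, at -0.08. With TMM scaling the median was 0.02 for all genes and -0.12 for the members' pairs, so small negative medians depend on the scaling. Mmp14 had a median log2 ratio of -0.47 over 11 classes, with -0.72 (-1.32 to -0.08) in AT1 cells and -0.65 in smooth muscle, and Timp2 one of -0.08 over 13 classes. Timp2 in AT1 cells had a ratio of 0.50 (0.33 to 0.67), with 649 and 917 CPM. After thinning, 50.9% of WT and 48.9% of KO AT1 cells held a UMI. These shares cover only the 114 of 384 WT and 474 of 695 KO AT1 cells with at least 1000 UMIs. Markers of other lineages were higher in WT than KO AT1 cells, with endothelial ones at 478 and 164 CPM, mesenchymal ones at 277 and 69.0 CPM and immune ones at 424 and 24.4 CPM, and their part in the Mmp14 and Timp2 ratios there was not tested. Timp3 had a median of -0.31 over 12 classes and went both ways, with -0.90 (-1.07 to -0.72) in AT2 cells, -0.84 in ciliated cells and -0.83 in club cells, and 0.30 in both activated and alveolar fibroblasts. The subclusters behind these classes made up different shares of the cells in the 2 libraries. Of the 235 WT and 5484 KO AT2 cells, 86 and 1575 were in the subcluster led by C2cd4b. Timp3 stood there at 507 and 288 CPM. The subcluster led by Acoxl held 72 WT and 2278 KO cells. Of the alveolar fibroblasts, 541 of 1092 WT cells but 21 of 1022 KO cells were in a shallow subcluster led by Gpx3, and in the subcluster led by C7 and Itga8 Timp3 stood at 1131 and 1307 CPM. Endothelial markers summed to 484 and 38.6 CPM in alveolar fibroblasts, and their part in the Timp3 ratio was not tested. The medians of the others were -0.12 for Mmp2 over 5 classes, -0.20 for Mmp19 over 3, -0.69 for Mmp3 over 4 and -0.29 for Timp1 over 6. These intervals cover counting error only.

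Levels of the members across classes were set side by side over 43 points, 1 per class and library, as Pearson's correlation of log2(CPM + 10). Points of 1 library share its depth and free RNA, so the values are descriptions. Mmp2 and Mmp3 stood at 0.93, Mmp2 and Timp1 at 0.90, Mmp14 and Timp1 at 0.79, and Mmp8 and Mmp9 at 0.69. Among 12325 genes, the most alike to Mmp2 were Cpxm1 and Mfap5 (0.96), to Mmp3 Gdf10 (0.98), to Timp1 Col5a3 (0.95) and to Timp3 Serpinh1 (0.93), the latter a collagen chaperone. The most alike to Mmp12 were C1qc and C1qb (0.92), to Mmp8 Clec4d and Csf3r (0.88), and to Mmp9 4732465J04Rik (0.86) and Retnlg (0.83). For Mmp14 it was Pmepa1 (0.84), for Mmp19 Cd302 (0.84) and for Timp2 Capns1 (0.88). Mfap5, C1qc, C1qb, Csf3r and Retnlg were themselves markers used to name classes, so these matches follow in part from how the points were made. Neutrophils and macrophages of the KO library held under 50 cells and gave no points. The Mmp9 values rest mainly on 1 point, WT neutrophils at 617 CPM, against 19.1 CPM in the next WT class.

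Other genes of the system were read from lists. Of 16 further MMPs, 15 were in the matrices, and only Mmp15, a membrane-bound MMP, had at least 100 UMIs in its highest class in both libraries, ciliated cells, at 185 and 167 CPM. Timp4 was highest in smooth muscle, at 136 and 96.3 CPM. Of 14 ADAM and ADAMTS proteases, 10 passed that minimum and 6 of these had the same highest class in both libraries, among them Adamts2, which trims procollagen, in adventitial fibroblasts at 884 and 741 CPM. The highest class of a list gene was taken over the 26 WT and 17 KO classes with at least 50 cells, not over the 14 shared ones. The 6 of 10 is therefore not comparable with the 9 of 10 members or the 60.3% of all genes. In the plasminogen system, which can activate MMPs, Serpine2 was highest in activated fibroblasts at 1246 and 778 CPM. Past 2-fold were 3 of 24 pairs upwards and 1 downwards for the other MMPs, 4 and 7 of 105 for the ADAM and ADAMTS list, 2 and 3 of 34 for the plasminogen list, and 0 and 3 of 49 for a list of MMP regulators. Over the pairs of all genes the shares were 1.93% upwards and 3.69% downwards. With so few pairs per list, these counts are not read as changes of a list.

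The positions of the genes bear on what a UMI can be assigned to. In RefSeq (GRCm38.p6), Mmp2 lies on chromosome 8 from 92827290 to 92853421, Timp1 on chromosome X from 20870166 to 20874737 and Timp3 on chromosome 10 from 86300412 to 86349505. In the GENCODE annotation, Timp1 lies across from Syn1, Timp3 from Syn3, Mmp19 from Tmem198b and Mmp12 from Mmp1b, each on the other strand. Timp2 overlaps Cep295nl there on its own strand. The RefSeq Mmp12 ends at 7360461 on chromosome 9, before the GENCODE start of Mmp1b at 7368239, so that overlap holds in GENCODE only. Over all kept cells, Syn3 had 1109 UMIs in WT and 3917 in KO, Syn1 235 and 64, Tmem198b 555 and 278, Cep295nl 70 and 57, and Mmp1b 0 and 1, against 28751 and 35912 for Timp3.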

How the data were processed

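Each library came as 1 matrix of UMI counts for genes by barcodes, which the authors deposited without normalization; the labels name Cell Ranger 3.1.0, STAR and GRCm38 (mm10), while the matrix header names Cell Ranger 5.0.0. Barcodes with more than 200 and fewer than 5000 genes and under 20% mitochondrial UMIs were kept, 45824 in all, holding 95684383 WT and 101954377 KO UMIs. Cells were clustered (2000 variable genes, 20 principal components, 20 neighbours, resolution 0.8; Scanpy 1.11.5, igraph 0.11.9, Python 3.11.15) by lineage into 80 clusters. A cluster was named where at least 3 markers of a class were detected and its 10 leading genes held a marker and not more markers of another class or lineage; 34 stayed unnamed, and these thresholds were set after clusters had been seen. Members, lists and tests were chosen with earlier results of these data known. Scrublet marked 348 of 15637 KO cells (2.23%) and 0 of 30187 WT cells, so it did not work there and doublets were kept.

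UMIs were summed by class and library as CPM with exact Poisson intervals, shares of cells got Clopper-Pearson intervals, and ratios got exact conditional intervals (SciPy 1.17.1), all at 95% and for counting error only. The ratio script was tested on simulated counts. Cells thinned to 1000 UMIs (22746 WT, 14503 KO, shallower cells left out) gave depth-matched shares. A class needed 50 cells; correlations used a pseudocount of 10 CPM, and bounds a floor of 3 UMIs per library. The text names all members, list genes with at least 100 UMIs in their highest class in both libraries (of which a selection is printed), and up to 3 genes most like each member with at least 200 UMIs per library. Alternatives changed the cell filter, doublets, components, resolution, gating, depth, denominator, TMM scaling (edgeR 4.0.16) and minimums.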

Additional observations from a re-analysis of the deposited data

How the results depend on the processing

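No paired analysis was possible because each genotype had 1 library. Highest classes were taken here over classes with at least 50 cells, which left out KO neutrophils and macrophages. The KO classes scored were monocytes for Mmp8, activated fibroblasts for Mmp9 and Mmp19, and gCap for Mmp12. For Mmp9 (0.404 CPM) and Mmp12 (1.84 CPM) they rest on 1 UMI each. For these members the counts do not score the KO sources described above. Of 20 such highest classes (10 members in 2 libraries), the number that stayed the same was 13 with at least 500 genes, 9 with the limits read as UMIs, 13 without Scrublet doublets, 13 with 10 components and 12 at resolution 0.4. For the class holding most UMIs of a member the numbers were 11, 8, 9, 12 and 10 in the same order, 13 with 30 components and 8 with marker gating. Members with the same highest class in both libraries numbered 6 to 10 over 15 alternatives. Pairs past 2-fold, 8 here, numbered 4 with the limits as UMIs, 14 at resolution 1.2, 4 after thinning, 4 with at least 30 expected UMIs and 17 with unnamed clusters given their best class, an alternative chosen after seeing the data, as was leaving out clusters with a median under 1000 UMIs.

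Turned in direction were, under marker gating, Mmp2 in mesothelial cells (-0.0060) and Timp1 in smooth muscle (-0.76), and, with unnamed clusters given a class, Timp3 in T, NK and ILC cells (1.02). The causes were not tested. Mmp3 in adventitial fibroblasts came within 2-fold under 7 of 17 alternatives (-1.29 to -0.04), Timp1 in activated fibroblasts under 4 of 12 (-1.20 to -0.61), and Mmp8 there under 3 of 10 (-1.31 to -0.21). TMM scaling moved ratios by 0.007 (gCap) to 0.306 (club), gave 2 pairs upwards and 4 downwards of 58, and made 48.8% of all genes' pairs past 2-fold upward ones, against 34.3% without it.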
